A study of Mus musculus with 4 samples.

Results

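Rab44, Cracr2a and Rasef were examined as a family that is described as large Rab GTPases with EF-hand domains. They were found by gene symbol in a table of lung RNA-seq counts and make up 3 of its 41079 genes. All 3 symbols were matched, and each gene was followed over the 4 libraries of the table, 1 for each combination of genotype (WT or Rab44-KO) and condition (normal or OVA-induced). The comparisons address whether the transcript levels of Cracr2a and Rasef differed where Rab44 was lost and whether OVA-induced WT lungs held more Rab44 transcript than normal WT lungs.

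The mice were female littermates of 8 to 14 weeks on a C57BL/6 background, either WT or with Rab44 disrupted by CRISPR/Cas9. OVA-induced mice of both genotypes were sensitized intraperitoneally with 100 μg of ovalbumin (OVA) plus alum on days 0, 7 and 14, and then challenged intranasally with 100 μg OVA in 50 μL for 4 days before collection on day 21. Normal mice are labelled as untreated, although the protocol attached to the same samples also describes a PBS challenge. The sources used here name no cell type to which the knockout was restricted, and the number of mice behind each library was not given in them.

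Rab GTPases are switches of membrane traffic. They bind membranes and recruit effector proteins when loaded with GTP, and they are released after GTP hydrolysis. Most are small proteins made up of little more than the GTPase domain. The large Rabs studied here add EF-hands, which are loops that bind calcium, and a coiled-coil region in front of a GTPase domain at the C-terminal end. Rab44 is known from hematopoietic cells, including mast cells and eosinophils, where it acts on granule release and lysosome-related organelles. CRACR2A, the product of Cracr2a, is known from T cells, where its short form regulates the calcium release-activated calcium channel of ORAI and STIM proteins and its long form is a Rab GTPase. RASEF, also named RAB45, is less well characterised.

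In the GENCODE M21 annotation of GRCm38, Rab44 is a protein-coding gene on the plus strand of chromosome 17 from 29114145 to 29148980. Cracr2a is on the plus strand of chromosome 6 from 127561338 to 127674248, and Rasef is on the minus strand of chromosome 4 from 73714579 to 73790994. The stretch shown is the P-loop of the GTPase domain, the glycine-rich loop that holds the phosphates of GTP in Rabs and other GTPases. It was chosen because all 3 genes have it. Each window below runs 5′ to 3′ along the coding strand and lies within 1 coding exon, and capitals mark the 24 bases of the P-loop. The windows are chr17:29140445-29140516 in exon 9 of transcript Rab44-206, chr6:127649872-127649943 in exon 14 of Cracr2a-203 and, read from the minus strand, chr4:73740282-73740353 in exon 12 of Rasef-203.
Rab44: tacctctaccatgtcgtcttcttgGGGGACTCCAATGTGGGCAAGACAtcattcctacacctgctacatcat
Cracr2a: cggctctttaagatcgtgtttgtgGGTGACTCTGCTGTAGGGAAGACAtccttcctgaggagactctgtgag
Rasef: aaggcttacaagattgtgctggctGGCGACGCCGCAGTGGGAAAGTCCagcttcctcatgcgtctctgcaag

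The loop is late in every reading frame, beginning 81.3% of the way along the coding sequence of Rab44-206, 75.2% along Cracr2a-203 and 72.7% along Rasef-203. Rab44 and Cracr2a shared 18 of the 24 loop bases and 7 of the 8 encoded residues. Rasef shared 16 of 24 bases with either gene, and 5 of 8 residues with Rab44 and 6 of 8 with Cracr2a. Over the GTPase region, from 8 residues before the loop to the end of the protein, 49.5% of aligned residues were identical between Rab44 and Cracr2a, 47.9% between Cracr2a and Rasef, and 42.1% between Rab44 and Rasef. Thus, Cracr2a was the closer relative of Rab44 over this region.

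The genes differ in how their transcripts divide. Rab44-206 has 973 codons in 14 exons and Rab44-201 has 725 codons in 8 exons, and both hold the P-loop. Cracr2a-203 has 726 codons in 19 exons with the P-loop, whereas Cracr2a-201 has 310 codons in 7 exons without it. All 3 coding transcripts of Rasef, with 708, 627 and 555 codons, hold the loop. A strict pattern for the calcium-binding EF-hand loop matched 1 time in either Cracr2a transcript and 2 times in Rasef-203, and had no match in the other Rasef transcripts or in any Rab44 transcript, so the EF-hands of Rab44 are taken from its description and not from this search. The deposited counts pool the transcripts of a gene, so the long and short forms of Cracr2a could not be separated. None of the 100-base windows of Rab44 or Rasef transcripts occurred in another gene. For Cracr2a, 7.35% of 7725 windows also belonged to Gm43634, a long noncoding RNA on the same strand, which is not in the table used here, and how many reads of Cracr2a came from there is not known.

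Library totals ranged from 18112901 to 19910236 counts, with 24316 to 25003 genes detected. Counts were scaled to CPM, the count of a gene relative to the library total, with TMM factors, which ranged from 0.973 to 1.02. Each log2 fold change (log2FC) is the log2 ratio of CPM between 2 libraries. Where 4 values follow each other they stand for WT and Rab44-KO under normal conditions, then for WT and Rab44-KO under OVA-induced conditions. The values in parentheses after a CPM or a log2FC are exact 95% intervals, which cover counting error only. With 1 library per group no pair of groups has a replicate check, a model over all 4 libraries was not run, and every difference is between libraries. The 4 comparisons share libraries, so they are not independent of each other. Levels of different genes were compared as TPM, which is scaled by gene length. As labelled, the libraries held markers of lung epithelium, with 181126 to 361981 counts of the surfactant protein gene Sftpc and 90 to 125 counts of Cldn4, the least abundant of the 10 listed. In whole lung, fewer cells of a type and less RNA per cell cannot be told apart.

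Rab44, the targeted gene, was nearly absent from both Rab44-KO libraries. Its counts were 251 (WT) and 1 (Rab44-KO) under normal conditions, and 810 (WT) and 0 (Rab44-KO) under OVA-induced conditions. Both WT libraries were far above both Rab44-KO libraries, which were at or under a floor of 3 counts, or 0.154 to 0.164 CPM depending on the library. In CPM, Rab44 was at 13.1 (11.5 to 14.8) and 41.8 (39.0 to 44.8) in normal and OVA-induced WT lungs, and at 0.0548 in normal Rab44-KO lungs. Under normal conditions this was 239-fold lower in Rab44-KO, with a wide interval of 42.4 to 9460.3 set by the single count. Under OVA-induced conditions it was at least 272-fold lower with the floor in place of the count of 0, and the exact interval reached to 221-fold lower. Genes were tested against a fold threshold when the higher library held at least 10 counts of them. In Rab44-KO over WT, 2.77% of them were higher and 2% lower by more than 2-fold under normal conditions, and 8.4% and 7.34% (1617 and 1413 genes) were so under OVA-induced conditions. With TPM the latter were 2602 and 777 genes. In both comparisons Rab44 was the only one of the 3 genes beyond 2-fold, which for the targeted gene checks the genotype labels.

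**Figure D1:**
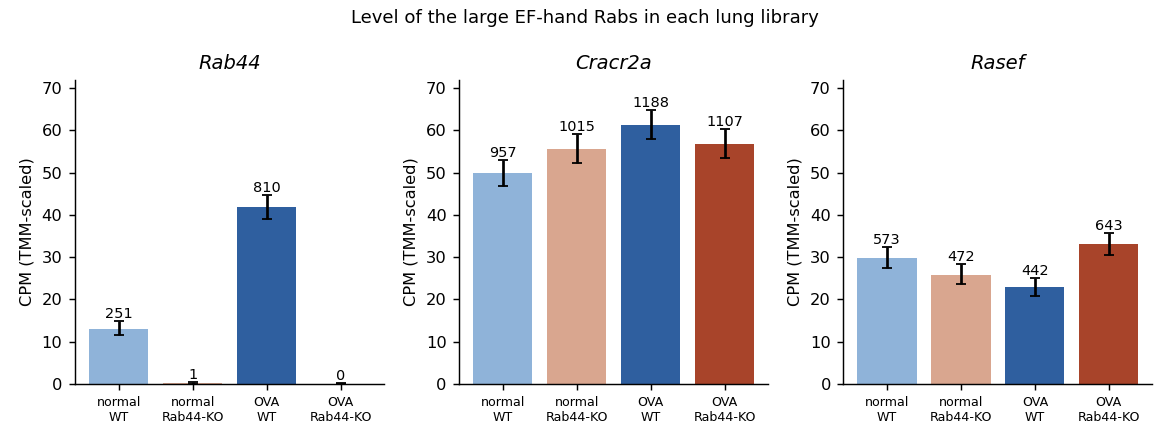
Level of each large EF-hand Rab in the 4 lung libraries, in TMM-scaled CPM on the vertical axis, with 1 bar per library, raw counts above the bars and error bars for exact 95% Poisson intervals of the count. Rab44 was at 13.1 CPM in normal WT and 41.8 CPM in OVA-induced WT lungs and close to 0 in both Rab44-KO libraries, whereas Cracr2a stayed between 49.8 and 61.3 CPM and Rasef between 22.8 and 33.0 CPM.

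Rab44 was higher in the OVA-induced than in the normal WT library. The log2FC was 1.68 (1.47 to 1.89), which is 3.20-fold (2.77 to 3.70). Of all genes tested in this pair of libraries, 8.99% were higher and 5.2% lower by more than 2-fold, and 4.39% had a log2FC at least as high as that of Rab44. Its log2FC remained between 1.49 and 1.68 under the 8 alternative settings. In TPM, Rab44 went from 7.46 in normal WT to 21.2 in OVA-induced WT lungs. The share of detected genes with a lower TPM was 54.7% in the first and 74.7% in the second library. No fold was taken between the Rab44-KO libraries, because both were at or under the floor.

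This difference placed Rab44 in another position among its relatives. In normal WT lungs Rab44 had the lowest TPM of the 3 genes, at 0.767 (0.661 to 0.877) of Cracr2a and 0.679 (0.579 to 0.784) of Rasef. In OVA-induced WT lungs Rab44 had the highest TPM, at 1.99 times (1.81 to 2.17) Cracr2a and 2.84 times (2.51 to 3.18) Rasef. Thus, the order by TPM was Rasef, Cracr2a, Rab44 in the normal WT library and Rab44, Cracr2a, Rasef in the OVA-induced WT library. Together the 3 genes summed to 28.2, 20.8, 39.2 and 25.8 TPM. Since this sum includes the deleted gene, it was also taken for Cracr2a and Rasef alone, at 20.7, 20.8, 18.1 and 25.8 TPM. Without Rab44 the sum was nearly the same in both genotypes under normal conditions, and under OVA-induced conditions it was higher in Rab44-KO, in a pair where TPM also moved the median log2FC of all genes by 0.32.

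Markers of several leukocytes were also higher in the OVA-induced WT library. Of the neutrophil markers, 9 of 9 tested were over 2-fold higher (median log2FC 2.57), as were 5 of 8 eosinophil (1.83), 6 of 10 monocyte and macrophage (1.32), 6 of 10 T cell (1.09) and 4 of 9 mast cell and basophil markers (0.75), and 1 of the last list was over 2-fold lower. Of the 4 mast cell and basophil markers, Mcpt8 and Tpsb2 had at most 15 counts in either library. With TPM, 3 of 10 T cell and 2 of 9 mast cell and basophil markers were over 2-fold higher, beside 1273 of 19023 genes. In CPM, 8.99% of all genes were higher and 5.2% lower by more than 2-fold in this pair, and their median log2FC was 0.00. Among eosinophil markers, Alox15, a lipoxygenase gene, had 131 and 942 counts, and Prg2, the gene of major basic protein, had 1 and 185. Among neutrophil markers, S100a9, a calprotectin subunit gene, had 538 and 3461 counts, Cxcr2, a chemokine receptor gene, had 74 and 496, and Ngp had 0 and 187. Marco and Cd68, of macrophages, had log2FC of 2.64 and 1.98, and Hdc, the histidine decarboxylase gene of basophils and mast cells, of 1.27. Kit, the most abundant gene of the mast cell and basophil list, went the other way (-0.50), as did the mast cell protease gene Mcpt4, with 20 and 1 counts. Their part in the level of Rab44 was not tested.

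Summed over each list, the normal and OVA-induced WT libraries had 302 and 517 TPM of eosinophil, 354 and 1855 of neutrophil, 164 and 180 of mast cell and basophil, 11411 and 20344 of monocyte and macrophage, and 116 and 214 TPM of T cell markers. The normal and OVA-induced Rab44-KO libraries had 295 and 449, 456 and 2814, 180 and 224, 12953 and 12331, and 117 and 134 TPM of the same lists. In the OVA-induced pair the sums of eosinophil, monocyte and macrophage, and T cell markers were thus lower in Rab44-KO, and those of neutrophil and of mast cell and basophil markers were higher. TPM also moved the median log2FC of all genes by 0.32 in this pair. The mast cell and basophil sum included Kit, at 64.4 TPM in OVA-induced WT and 118 TPM in OVA-induced Rab44-KO lungs. In CPM the median log2FC of this list was -1.09, and Kit was the only 1 of 8 tested above 0. Several defining markers were at or near 0. Epx, the eosinophil peroxidase gene, was at 0 in 3 libraries and had 1 count in OVA-induced WT lungs, and Prg3 was at 0 in both normal libraries. Ly6g, Ngp and Camp, of neutrophils, were at 0 in normal WT lungs. Tpsab1, a mast cell tryptase gene, was at 0 in 3 libraries and had 1 count in OVA-induced Rab44-KO lungs. The eosinophil list is not exclusive to these cells, as Siglecf and the Ear genes are also used by lung macrophages.

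**Figure D2:**
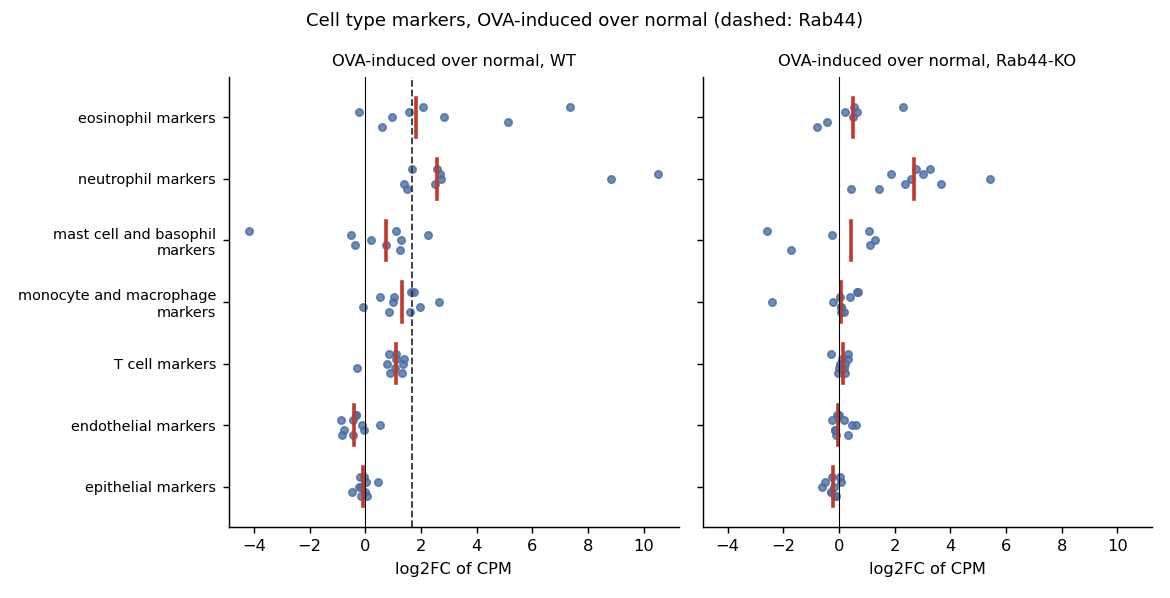
Cell type markers in OVA-induced over normal lungs, WT on the left and Rab44-KO on the right, with the log2FC of CPM on the horizontal axis, 1 point per marker gene tested, a red bar at the median of each list and a dashed line at the log2FC of Rab44 in WT (1.68). Points beyond 5 belong to genes with at most 7 counts in the normal library and depend on the prior count; neutrophil medians were 2.57 in WT and 2.69 in Rab44-KO, whereas eosinophil medians were 1.83 and 0.48.

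The same lists were read between the normal and OVA-induced Rab44-KO libraries. Here 6.44% of all genes were higher and 3.85% lower by more than 2-fold, with a median of -0.01. Neither of the 2 members that were tested, Cracr2a and Rasef, was beyond 2-fold. Neutrophil markers were over 2-fold higher in 9 of 10 (median 2.69), but eosinophil markers in 1 of 7 (0.48), T cell markers in 0 of 10 (0.14) and monocyte and macrophage markers in 0 of 10, with 1 lower (0.08). Mast cell and basophil markers were split, with 3 higher and 2 lower of 6 (0.42). Between the OVA-induced libraries, Rab44-KO lungs were over 2-fold lower in 6 of 8 eosinophil (median -1.59) and 6 of 10 monocyte and macrophage markers (-1.04). The same held for 5 of 10 T cell (-0.93) and 4 of 8 mast cell and basophil markers (-1.09), beside 7.34% of all genes. Rab44-KO lungs were over 2-fold higher in 2 of 10 neutrophil markers (0.45), beside 8.4% of all genes. The 4 mast cell and basophil markers were on at most 27 counts, and Kit was higher in Rab44-KO, with 3068 and 4514 counts. The median of all genes was -0.02 in this pair. With TPM it was 0.29, and 2602 of 19259 genes were over 2-fold higher and 777 lower. In that setting 4 of 10 neutrophil markers were over 2-fold higher. The eosinophil marker Ear1 went the other way, with 258 counts in WT and 436 in Rab44-KO, and with TPM 4 of 8 eosinophil markers were over 2-fold lower and 1 higher. With TPM or with the trend along gene length removed, 0 of 10 T cell and 3 of 10 monocyte and macrophage markers were over 2-fold lower, with medians still below 0 (T cell -0.60 and -0.68, monocyte and macrophage -0.71 and -0.89). Between the normal libraries 2 of 7 mast cell and basophil markers were over 2-fold lower (median -0.53) and 1 of 10 macrophage markers, Marco, was higher, beside 2% lower and 2.77% higher over all genes. The 2 lower ones, Fcer1a and Ms4a2, had at most 23 counts, and Kit was higher in Rab44-KO, with 4313 counts in WT and 4995 in Rab44-KO. No neutrophil marker was beyond 2-fold there, but 6 of 7 were above 0, with Cxcr2 at 0.73, Retnlg at 0.69 and Mmp9 at 0.63. Medians of the other lists there were -0.05 for eosinophil, 0.20 for neutrophil, 0.01 for monocyte and macrophage and 0.01 for T cell markers, beside 0.00 for all genes.

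Cracr2a was detected at similar levels in the 4 libraries. It was counted 957 and 1015 times in WT and Rab44-KO under normal conditions, and 1188 and 1107 times under OVA-induced conditions, which is 49.8 (46.7 to 53.1), 55.6 (52.2 to 59.1), 61.3 (57.9 to 64.9) and 56.8 CPM (53.5 to 60.2). OVA-induced WT was the highest and normal WT the lowest library, and the 2 Rab44-KO libraries were between them. Under normal conditions Cracr2a was 1.12-fold (1.02 to 1.22) higher in Rab44-KO than in WT, a log2FC of 0.16 (0.03 to 0.29). Under OVA-induced conditions the ratio was 0.926 (0.852 to 1.01), a log2FC of -0.11 (-0.23 to 0.01) whose interval includes 0. Of all genes, 48.5% had an absolute log2FC at least as large under normal and 85.4% under OVA-induced conditions, so Cracr2a was not set apart from the background in either pair. Between normal and OVA-induced lungs it was 1.23-fold (1.13 to 1.34) higher in WT, with 52.7% of genes at least as far from 0, and 1.02-fold higher in Rab44-KO, a log2FC of 0.03 (-0.09 to 0.15), with 94.0% of genes at least as far. The sign of this last value turned, to -0.11, with the trend along gene length (described with the genotype differences across conditions) removed.

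Rasef differed between the libraries in both directions. It was counted 573 and 472 times in WT and Rab44-KO under normal conditions, and 442 and 643 times under OVA-induced conditions, which is 29.8 (27.4 to 32.4), 25.9 (23.6 to 28.3), 22.8 (20.7 to 25.1) and 33.0 CPM (30.5 to 35.6). The lowest library was OVA-induced WT and the highest was OVA-induced Rab44-KO. Rasef was thus lower in Rab44-KO than in WT under normal conditions, at 0.867-fold (0.766 to 0.981), and higher under OVA-induced conditions, at 1.45-fold (1.28 to 1.63). The log2FC were -0.21 (-0.39 to -0.03) and 0.53 (0.35 to 0.71). An absolute log2FC at least as large belonged to 38.8% and 40.0% of all genes, respectively. Between normal and OVA-induced lungs Rasef was lower in WT, with a log2FC of -0.39 (-0.57 to -0.21), and higher in Rab44-KO, with 0.35 (0.18 to 0.53), and 43.2% and 41.3% of genes were at least as far from 0. The counting intervals of Rasef leave out 0 in all 4 pairs, but differences of this size were common among all genes.

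**Figure D3:**
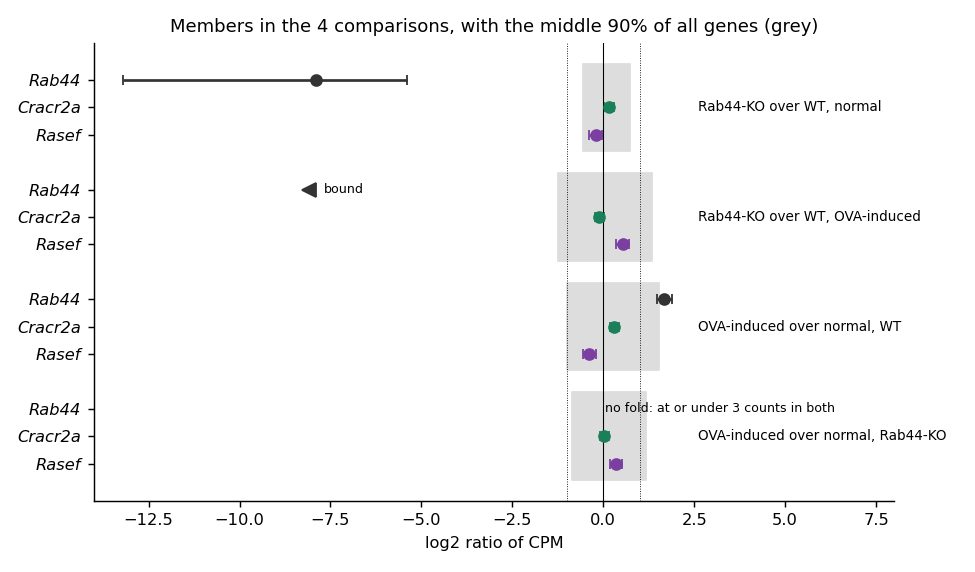
Log2 ratio of CPM of the 3 genes in the 4 comparisons, with points for the ratio, bars for exact 95% counting intervals, a triangle for the bound of Rab44 where 1 library had no count, grey bands for the middle 90% of all genes tested and dotted lines at 2-fold. Cracr2a (-0.11 to 0.30) and Rasef (-0.39 to 0.53) were inside the grey band in every comparison, whereas Rab44 at 1.68 was above it in OVA-induced WT over normal WT lungs.

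The genotype difference of each relative was then set against itself across conditions. For Rasef, the log2 difference between Rab44-KO and WT was larger in the OVA-induced than in the normal pair by 0.74 (0.48 to 0.99), and 23.7% of 18233 genes differed at least as far. For Cracr2a the same quantity was -0.27 (-0.45 to -0.09), and 63.5% of genes differed at least as far. A difference over all genes by length ran beside these values. Cracr2a is longer than 94.1% and Rasef than 78.6% of the genes tested under OVA-induced conditions, and the running median log2FC of genes of the same length was 0.47 for Cracr2a, 0.20 for Rasef and 0.01 for Rab44 in Rab44-KO over WT. Between normal and OVA-induced WT lungs it was -0.24, -0.12 and 0.00. With this trend removed, Rab44-KO over WT under OVA-induced conditions gave -0.58 for Cracr2a and 0.33 for Rasef. The source of this trend was not tested. With deposited TPM the sign of Cracr2a turned, to 0.21 in Rab44-KO over WT under OVA-induced conditions, where the median of all genes also moved by 0.32, and to 0.030 for the difference across conditions.

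In TPM, the balance of Rasef to Cracr2a differed between libraries. Rasef was at 11.0, 9.71, 7.45 and 13.5 TPM, and Cracr2a was at 9.73, 11.1, 10.6 and 12.3 TPM. The ratio of Rasef to Cracr2a was 1.13 (1.02 to 1.25), 0.878 (0.785 to 0.980), 0.702 (0.628 to 0.784) and 1.10 (0.993 to 1.21). Rasef was therefore above Cracr2a in normal WT and below it in normal Rab44-KO and OVA-induced WT lungs, and they were not separated in OVA-induced Rab44-KO lungs. Both were mid-level transcripts in each library, with 59.0% to 62.2% of detected genes below Cracr2a and 56.3% to 63.1% below Rasef. In neither genotype comparison was Cracr2a or Rasef over 2-fold higher in Rab44-KO. Of all genes, only 2.77% were so under normal and 8.4% under OVA-induced conditions, so this does not set the 2 relatives apart from the background.

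Other EF-hand proteins that work with GTPases but lack a Rab domain were also compared. Cracr2b, the closest relative of CRACR2A, Rhot1 and Rhot2, the mitochondrial Miro GTPases, and Rab11fip3 and Rab11fip4, which bind Rab11, were all tested, and 0 of 5 were over 2-fold higher or lower in any of the 4 comparisons. Their median log2FC was 0.02 and 0.12 in Rab44-KO over WT under normal and OVA-induced conditions, and -0.05 and 0.18 in OVA-induced over normal WT and Rab44-KO lungs. Over all genes the share beyond 2-fold ran from 2% (lower, normal genotype pair) to 8.99% (higher, WT pair) per direction and comparison, so 0 of 5 is near the background. Cracr2b, which is thought to regulate the ORAI channel as CRACR2A does, had 3443 counts in WT and 2406 in Rab44-KO under normal conditions, and 2642 and 2006 under OVA-induced conditions. It was lower in Rab44-KO than in WT under both conditions, with log2FC of -0.44 (-0.52 to -0.37) and -0.41 (-0.49 to -0.32), and lower after OVA in both genotypes, with -0.39 and -0.36. With TPM its genotype difference under OVA-induced conditions was -0.080. Rhot2 had a log2FC of -0.27 in Rab44-KO over WT under normal conditions. Under OVA-induced conditions Rab11fip3 had 0.41 (0.16 with the length trend removed and 0.73 with TPM) and Rhot1 0.23 (0.16 and 0.55). Rab11fip4 had 0.52 in OVA-induced over normal lungs of either genotype.

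The store-operated calcium pathway, in which CRACR2A acts, includes the STIM sensors of the endoplasmic reticulum, the ORAI channels of the plasma membrane, the IP3 receptors that empty the store, and calcineurin and NFAT downstream. All 17 genes listed were tested, and none was over 2-fold higher or lower in any of the 4 comparisons. The median log2FC was -0.00 under normal and 0.03 under OVA-induced conditions in Rab44-KO over WT, and -0.02 in WT and 0.09 in Rab44-KO in OVA-induced over normal lungs. Over all genes, 2.77% were over 2-fold higher and 2% lower in the normal genotype pair, and 8.4% and 7.34% in the OVA-induced pair. In OVA-induced over normal lungs the shares were 8.99% and 5.2% in WT, and 6.44% and 3.85% in Rab44-KO. Orai1, a channel subunit gene, had 464 and 468 counts in WT and Rab44-KO under normal conditions, and 637 and 436 under OVA-induced conditions, so the OVA-induced WT library stood above the other 3. Its log2FC was 0.44 (0.27 to 0.62) in OVA-induced over normal WT lungs and -0.56 (-0.74 to -0.38) in Rab44-KO over WT under OVA-induced conditions, or -0.23 with TPM. Orai2, in contrast, was higher after OVA in both genotypes, with 412 and 623 counts in WT and 434 and 649 in Rab44-KO, log2FC of 0.58 and 0.49. The IP3 receptor genes Itpr1 and Itpr2 were higher in Rab44-KO than in WT under OVA-induced conditions, with 0.69 and 0.51. These 2 values were 0.27 and 0.037 with the trend along gene length removed. With TPM Itpr1 was at 1.01, the only gene of the list beyond 2-fold in that setting and pair, where 2602 of 19259 genes were over 2-fold higher. Nfatc1 and Nfatc2, transcription factor genes at the end of the pathway, had 0.50 and 0.40 in OVA-induced over normal Rab44-KO lungs, and under normal conditions the largest differences were those of Cracr2b, which is also in this list (-0.44), of Nfatc2 (-0.20, with an interval that includes 0) and of Ppp3r1, a calcineurin subunit gene (-0.15).

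Rabs of secretory granules and lysosome-related organelles, which lack EF-hands, were compared because Rab44 acts on the same compartments. All 10 were tested. None was over 2-fold higher or lower in Rab44-KO over WT under either condition. Over all genes 2.77% were higher and 2% lower under normal conditions, and 8.4% and 7.34% under OVA-induced conditions. The medians of these 10 Rabs were -0.00 and -0.00. In OVA-induced over normal lungs, 2 of 10 were over 2-fold higher in WT (median 0.33; 0 of 10 with TPM and 1 of 10 with the length trend removed), and 1 was higher and 1 lower in Rab44-KO (0.17). The shares over all genes were 8.99% higher in the WT pair, and 6.44% higher and 3.85% lower in the Rab44-KO pair, so these counts were near the background. Rab32, which directs cargo to lysosome-related organelles, had 344 and 267 counts in WT and Rab44-KO under normal conditions, and 718 and 370 under OVA-induced conditions. As with Orai1, the OVA-induced WT library held the highest level, with a log2FC of 1.05 (0.86 to 1.24) over normal WT, and -0.97 (-1.15 to -0.78) for OVA-induced Rab44-KO over OVA-induced WT. Rab37, a granule Rab of mast cells, had 70 and 156 counts in WT and 45 and 101 in Rab44-KO lungs, log2FC of 1.14 and 1.07 in OVA-induced over normal, and -0.64 in Rab44-KO over WT under OVA-induced conditions. Rab27b, which docks granules, was higher after OVA in both genotypes, with 0.70 and 0.94. Rab3c had 0.83 in OVA-induced over normal Rab44-KO lungs, and Rab3a -0.41 in Rab44-KO over WT under OVA-induced conditions. In that genotype comparison Rab3a was at -0.069 with the length trend removed, and Rab37 and Rab32 were at -0.30 and -0.64 with TPM.

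**Figure D4:**
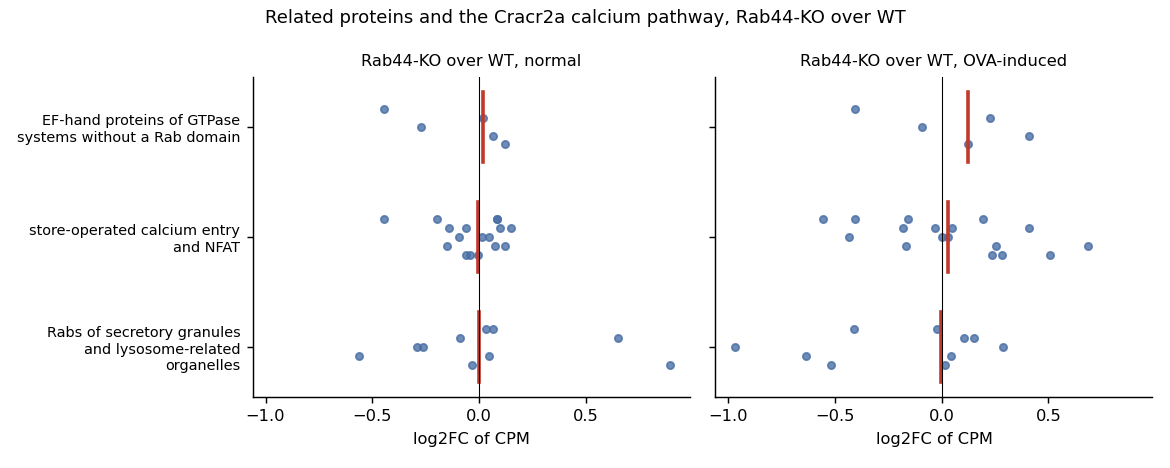
Log2FC of CPM in Rab44-KO over WT lungs under normal (left) and OVA-induced (right) conditions for 3 gene lists related to the large EF-hand Rabs, with 1 point per gene and a red bar at the median of each list. Every point was within 1 of 0, and medians were 0.02, -0.00 and -0.00 under normal and 0.12, 0.03 and -0.00 under OVA-induced conditions, from the top list to the bottom.

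Markers of structural cells were read in the same way. Between the normal libraries 0 of 10 endothelial and 0 of 10 epithelial markers were beyond 2-fold in Rab44-KO over WT, with medians of -0.02 and -0.09. Over all genes 2.77% were higher and 2% lower there. In the OVA-induced pair 2 of 10 endothelial markers, Vwf and Tek, were over 2-fold higher in Rab44-KO by a small margin (Tek 1.01, median of the list 0.38), and 1 of 10 epithelial markers, Sftpc, was lower (-1.01, median -0.19), beside 8.4% higher and 7.34% lower over all genes. With TPM 3 of 10 endothelial markers were higher (median 0.71), as were 2602 of 19259 genes, with a median of 0.29 over all genes. None of Vwf, Tek and Sftpc was beyond 2-fold with the length trend removed, which gave 0.66 for Vwf, 0.97 for Tek and -0.49 for Sftpc, and the epithelial median was then 0.05, and 0.13 with TPM. In OVA-induced over normal lungs none of either list was beyond 2-fold, and medians were -0.39 and -0.09 in WT and -0.04 and -0.21 in Rab44-KO. Over all genes 8.99% were higher and 5.2% lower in WT, and 6.44% and 3.85% in Rab44-KO. With TPM the endothelial marker Erg was beyond 2-fold in WT, at -1.06. Summed endothelial markers were at 2543, 2526, 2007 and 3109 TPM, and summed epithelial markers at 160387, 158645, 126079 and 136083 TPM. Rasef had the same order of the 2 OVA-induced libraries, lowest in WT and highest in Rab44-KO, and the part of endothelial cells in it was not tested.

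The genes on either side of Rab44 were read because the edited locus could differ between genotypes beyond the target. They were taken by their order in the deposited table, 5 on each side, among genes with enough counts. Cdkn1a, which encodes the cell cycle inhibitor p21 and is the neighbor before Rab44, had 437 and 564 counts in WT and Rab44-KO under normal conditions, and 1609 and 6217 under OVA-induced conditions. It was higher in Rab44-KO under both conditions, with a log2FC of 0.44 (0.26 to 0.62) in normal lungs and of 1.94 (1.86 to 2.02) in OVA-induced lungs. Ppil1, a peptidyl-prolyl isomerase gene 2 places after Rab44, was lower in Rab44-KO under both, with 383 and 267 counts in the normal and 474 and 230 in the OVA-induced pair, log2FC of -0.45 (-0.68 to -0.22) and -1.05 (-1.29 to -0.82). These were the only neighbors beyond 2-fold, both under OVA-induced conditions, where 1 higher and 1 lower of 10 is near the 8.4% and 7.34% of all genes, and Ppil1 had -0.60 there with the length trend removed. The gene right after Rab44, Cpne5, had -0.65 under normal and 0.46 under OVA-induced conditions, and Gm53222 had -0.59 and 0.68, on at most 159 counts per library. Srsf3 had -0.15 and -0.63, and the 4 others with enough counts in both pairs, Kctd20, Stk38, BC004004 and Pi16, were between -0.35 and 0.37. Signs of BC004004 under normal conditions and of Kctd20, Stk38 and Pi16 under OVA-induced conditions turned under 1 or more alternative settings. Trp53cor1 had at most 10 counts in a library.

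**Figure D5:**
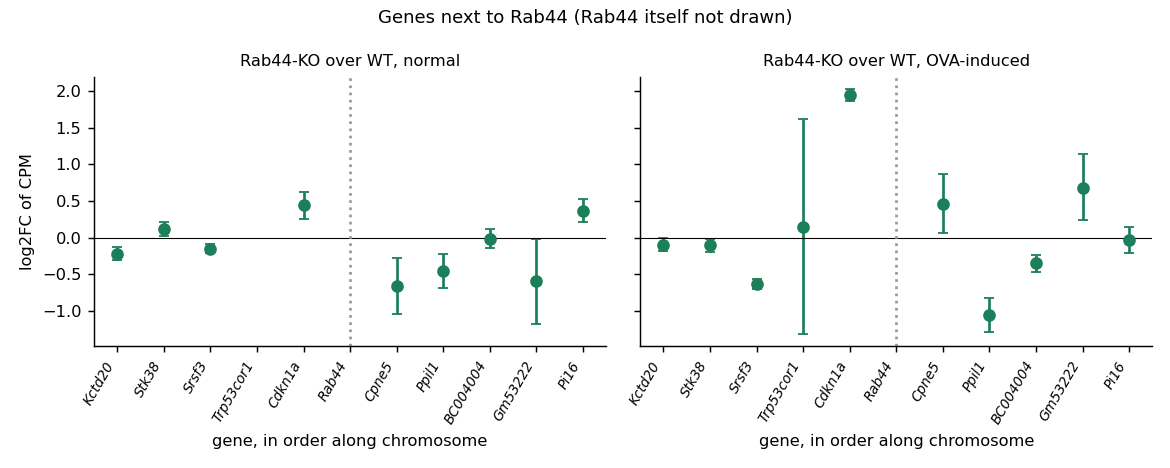
Log2FC of CPM in Rab44-KO over WT lungs for the 5 genes on each side of Rab44, in their order along the chromosome, under normal (left) and OVA-induced (right) conditions, with exact 95% counting intervals and a dotted line at the place of Rab44. Cdkn1a was the highest point under OVA-induced conditions (1.94) and Ppil1 the lowest (-1.05), and Trp53cor1 had too few counts to be drawn under normal conditions.

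The genes whose levels over the 4 libraries were most like those of each member were found by the Euclidean distance between log2 CPM profiles centred on their means, over 13899 genes that reached 100 counts in at least 1 library and with counts under 3 set to 3. For Rab44 these were Igkv3-1, Igkv8-28, Slc39a2, Iglv2 and Igkv3-12, at distances of 4.34 to 4.87. Of these, 4 are immunoglobulin light chain variable genes of plasma and B cells, and Slc39a2 is a zinc transporter gene. None was close, as Slc39a2 still had 79, 47, 440 and 15 counts. For Cracr2a they were Ubac2, Wdr62, Ap4b1, Tmc4 and Shb, at 0.0127 to 0.0373, and for Rasef they included Sp2, Fzd3, Srcap and Plpp3, at 0.0449 to 0.0642. Ubac2 had 610, 646, 756 and 712 counts and Sp2 had 533, 458, 423 and 617 in the order used throughout. With only 4 libraries behind each profile, this likeness is a description.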

How the data were processed

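The authors used HISAT2 to map trimmed read pairs from a directional kit to GRCm38 and featureCounts to count them by gene. They deposited raw counts, and TPM, the same counts scaled by the authors to gene length and to 1000000 per library. Versions, the strand setting and the treatment of reads with several matches are not given in the sources used here. Groups were taken from the labels. The 3 genes and all gene lists were chosen with earlier results of these data known.

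Counts were scaled to CPM by TMM in edgeR 4.0.16 (R 4.3.3) over all 4 libraries. For the log2FC, a prior count of 0.125 was added in proportion to library size, and a gene was tested where the higher library held at least 10 counts of it. Intervals are exact at 95% (Poisson for CPM, Clopper-Pearson for count ratios, conditional odds ratio for the difference across conditions). With 2 libraries compared there is no residual degree of freedom, an additive model with both genotype and OVA terms was left out, and no p-value is given. From each list, up to 3 genes per comparison were named by the largest absolute log2FC where the higher library held at least 100 counts. Markers named as being at 0, Mcpt4, and Ear1 between the OVA-induced libraries were chosen after their values were seen. Of the genes nearest to Rasef in profile, 1 is not reported here.

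The table places the start of a gene where GENCODE M21 does for 0.860% of 28949 matched genes, so positions and sequences follow GENCODE M21 (GRCm38), and only the gene order was taken from the table. The P-loop was searched in translated reading frames as a glycine, any 4 residues, glycine, lysine, and serine or threonine. The steps were tested on simulated counts. Python 3.11.15, numpy 2.4.6, pandas 2.3.3, scipy 1.17.1, Biopython 1.88 and matplotlib 3.10.9 were used. Alternatives were DESeq2 1.42.0 size factors, total counts, TMM on the compared pair, TMM without immunoglobulin genes, TPM with a pseudocount of 0.1, a prior count of 2, thinned counts, subtraction of the running median log2FC of genes of like length, a minimum of 1 or of 50 counts, a stricter threshold of 2 on the absolute log2FC, and counting intervals that lie wholly past 2-fold. Their use on the difference across conditions was chosen after seeing the data.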

Additional observations from a re-analysis of the deposited data

Results flagged for a closer look

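Genotype differences of the relatives of Rab44 had opposite signs under the 2 conditions, with 1 library per group. The log2FC of Cracr2a in Rab44-KO over WT was 0.16 under normal and -0.11 under OVA-induced conditions, where its counting interval includes 0 and where TPM gave 0.21. That of Rasef was -0.21 under normal and 0.53 under OVA-induced conditions. Rasef also differed in opposite directions between normal and OVA-induced lungs of the 2 genotypes, with -0.39 in WT and 0.35 in Rab44-KO. These are the same 4 counts of each gene seen from both sides, and the difference between groups was not tested.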

How the results depend on the processing

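Of the log2FC of the 3 genes under 8 alternative settings, 81 remained within the counting interval of the value given (for Rab44 without counts, the interval at the floor of 3 counts) and 7 moved outside it. With TPM, Rab44-KO over WT under OVA-induced conditions gave 0.21 for Cracr2a and 0.85 for Rasef, and OVA-induced over normal WT lungs gave 0.12 for Cracr2a, while the median of all genes moved by 0.32 and -0.17 in these pairs. With the running median along gene length removed, Cracr2a had -0.58 and Rasef 0.33 in the first pair, and Cracr2a had 0.54 in the second and -0.11 in OVA-induced over normal Rab44-KO lungs. The difference across conditions became 0.030 for Cracr2a and 1.03 for Rasef with TPM, and -0.66 for Cracr2a with the length trend removed, and it remained within its interval in the 13 other cases. The log2FC of Rab44 ranged from 1.49 to 1.68 in OVA-induced over normal WT lungs and from -7.74 to -5.84 in Rab44-KO over WT under normal conditions, and its bound under OVA-induced conditions from -8.09 to -6.81.

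Counts of all genes over 2-fold, higher and lower, depended on the threshold, as its construction sets how many genes can pass. In Rab44-KO over WT under normal conditions they were 3068 and 2521 with a minimum of 1 count, 75 and 26 with 50 counts, 106 and 74 at an absolute log2FC above 2, and 51 and 19 for intervals wholly beyond 2-fold. Under OVA-induced conditions these were 4404 and 3552, 754 and 791, 350 and 413, and 412 and 532. In OVA-induced over normal WT lungs they were 4219 and 3325, 989 and 361, 647 and 217, and 814 and 200. In Rab44-KO lungs they were 3937 and 3136, 478 and 285, 371 and 129, and 365 and 147. With TPM they were 2602 and 777 in Rab44-KO over WT under OVA-induced conditions, and 481 were lower in OVA-induced over normal Rab44-KO lungs. By CPM without length Cracr2a was first of the 3 genes in every library. Depth limits Rab44 in Rab44-KO lungs to a bound.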

Other observations

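Cdkn1a, the gene next to Rab44, was also higher in OVA-induced than in normal lungs of both genotypes, with a log2FC of 1.87 (1.71 to 2.02) in WT and 3.37 (3.24 to 3.49) in Rab44-KO. Ppil1 went in opposite directions, with 0.29 (0.10 to 0.49) in WT and -0.31 (-0.57 to -0.05) in Rab44-KO. Cpne5 had -0.82 (-1.21 to -0.44) in WT and 0.30 (-0.10 to 0.70) in Rab44-KO, and Gm53222 had 68 counts in both WT libraries, and 43 in normal and 110 in OVA-induced Rab44-KO lungs. Rab44 itself differed by 1.68 in WT, so in that genotype Cdkn1a and Rab44 had log2FC with overlapping counting intervals. None of these differences was tested, as each group had 1 library.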
